A study of Mus musculus with 11 samples.

Results

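The 10 genes described here, of 19937 that a probe set of the arrays names alone, code for inhibitors that act back on mitogen-activated protein kinase (MAPK) signalling, namely the phosphatase genes Dusp1, Dusp4, Dusp5, Dusp6, Dusp8 and Dusp10, the Sprouty genes Spry1, Spry2 and Spry4, and the Sprouty-related gene Spred1. Members were taken as every probe set to which the platform annotation gives 1 of these symbols and no other, which found 11 probe sets of 34760, and all 11 passed the filter on low values that left 26038 for testing. Dusp8 has 2 probe sets and each other gene has 1. For Dusp8 the probe set with the higher mean over all arrays is reported, and the other is given beside it. Several probe sets of the whole table share a gene, and the 17516 tested ones with a single symbol stand for 16147 genes.

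RNA was profiled with Affymetrix arrays that cover whole transcripts. The cells were mouse embryonic fibroblasts called MEF LSL, of C57BL/6 x 129/SvJ background, in which both p53 alleles carry a removable stop cassette (p53LSL/LSL). All groups shared the restoration of p53 by AdenoCre virus (24 h, 5 infectious particles per cell), and all received 150 nM doxorubicin, a DNA-damaging drug, for 12 h. That drug was added 24 h after transfection with a control siRNA (3 arrays), a p53 siRNA (3 arrays), a non-targeting control antisense oligonucleotide (ASO, 2 arrays) or a Pint ASO (3 arrays), which was a pool of ASOs against the p53-induced long non-coding RNA Pint according to the methods of the study. No group without doxorubicin or without transfection is analysed here, and each knockdown is read against its own transfected control.

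MAPK cascades carry signals from growth factor receptors and stress sensors to the nucleus through the kinase families ERK, JNK and p38, which are switched on by phosphorylation of a threonine and a tyrosine. DUSP phosphatases remove both phosphates and so switch the kinases off, whereas Sprouty and Spred proteins act higher up, between the receptor, Ras and Raf. Transcription of many of these inhibitors is itself raised by the kinases, which makes their mRNAs widely used readouts of recent pathway activity in fibroblasts.

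Promoter windows of 250 bases before to 50 bases after the annotated start were matched by symbol for 8 of the 10 genes in RefSeq (mouse build GRCm38.p6), all but Dusp4 and Spry4. The 250 bases before the start are shown for 4 of them, 5′ to 3′ on the strand of the gene. Dusp5 and Dusp8 are shown as the phosphatase genes with the largest changes after the Pint ASO, Dusp1 as the inducible phosphatase gene that shares an element with Dusp8, and Dusp6 as the gene that moved differently. Capitals mark the cAMP response element (CRE, TGACGTCA), its shorter form (CRE core, TGACG) on either strand, and the CArG box, the site bound by serum response factor. The windows lie at chr19:53528895-53529144 (Dusp5, plus strand), chr7:142095285-142095534 (Dusp8, minus strand), chr17:26508473-26508722 (Dusp1, minus strand) and chr10:99262981-99263230 (Dusp6, plus strand).
Dusp5: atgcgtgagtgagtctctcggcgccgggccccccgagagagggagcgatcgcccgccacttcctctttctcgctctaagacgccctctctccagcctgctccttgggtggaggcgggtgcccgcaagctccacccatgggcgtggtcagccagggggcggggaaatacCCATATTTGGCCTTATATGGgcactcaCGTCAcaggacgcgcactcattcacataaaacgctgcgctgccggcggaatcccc
Dusp8: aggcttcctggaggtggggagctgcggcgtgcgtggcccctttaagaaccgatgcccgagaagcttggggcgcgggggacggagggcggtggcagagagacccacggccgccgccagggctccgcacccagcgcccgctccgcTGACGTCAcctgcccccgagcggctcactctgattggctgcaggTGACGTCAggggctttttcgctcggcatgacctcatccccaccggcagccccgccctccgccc
Dusp1: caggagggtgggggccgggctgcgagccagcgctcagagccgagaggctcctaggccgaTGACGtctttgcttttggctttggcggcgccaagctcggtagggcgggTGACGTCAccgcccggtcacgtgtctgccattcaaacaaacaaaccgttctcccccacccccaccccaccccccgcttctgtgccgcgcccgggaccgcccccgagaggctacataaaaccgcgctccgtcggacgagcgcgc
Dusp6: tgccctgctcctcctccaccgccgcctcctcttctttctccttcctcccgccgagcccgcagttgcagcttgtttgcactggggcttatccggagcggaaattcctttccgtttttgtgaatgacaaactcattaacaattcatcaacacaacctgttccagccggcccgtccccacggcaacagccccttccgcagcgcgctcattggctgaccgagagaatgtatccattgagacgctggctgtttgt

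In Dusp5, 2 CArG boxes stood end to end at positions -82 to -73 and -72 to -63 from the start, with a CRE core on the opposite strand at -55 to -51. Of 32851 mouse promoter windows of the same length, 1.63% hold a CArG box. Dusp8 holds the full CRE at -107 to -100 and again at -63 to -56, and Dusp1 holds it at -143 to -136, where 1.79% of all windows have at least 1. Each full CRE also counts as a CRE core on both strands, and Dusp1 has a further CRE core at -191 to -187. With these, 3 of the 8 windows hold a CRE core, against 20.8% of all. Dusp6, Dusp10, Spry1, Spry2 and Spred1 hold none of these letters in their windows.

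Other motifs were searched in the same windows on both strands. A GC box (GGGCGG) was present in 6 of 8, all but Dusp6 and Spry2, against 35.7% of all windows. The AP-1 site (TGANTCA), the ETS core (ACCGGAAG), the TATA box (TATAAA) and the p53 decamer (the 10-base unit of the p53 site) were found in 0 of 8, and in 7.81%, 2.30%, 13.6% and 8.36% of all windows. GC content of the 8 windows ranged from 57.3% in Dusp6 to 73.3% in Dusp8, above the median of 52.7% over all windows. These matches are letters in a sequence and not evidence of binding.

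**Figure D1:**
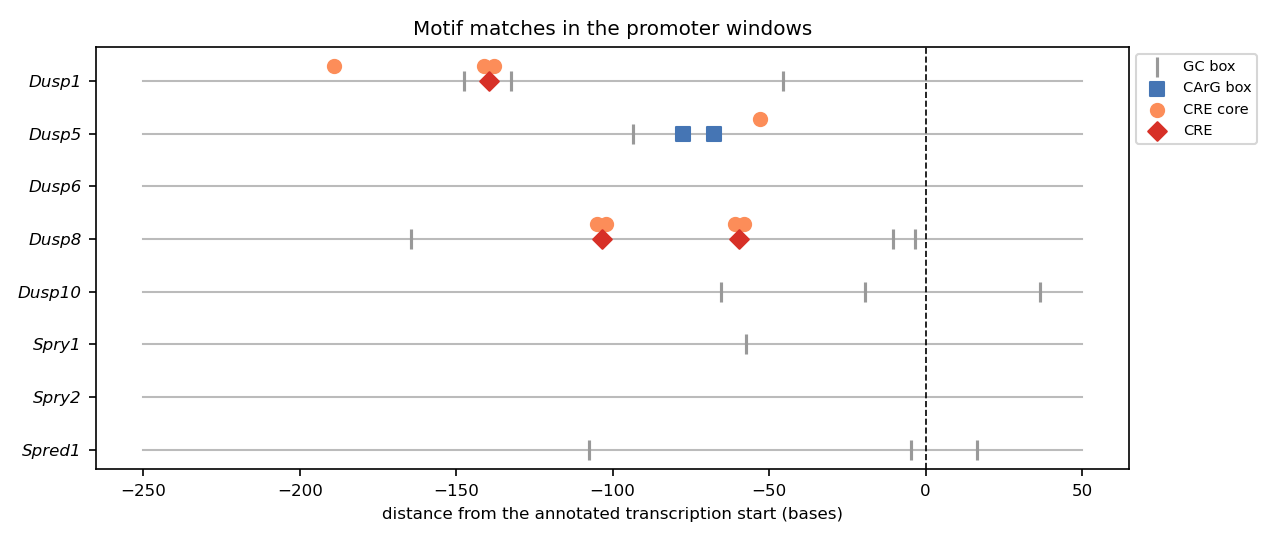
Position of each motif match (symbols) in the promoter windows of 8 genes, with the distance from the annotated transcription start in bases on the horizontal axis. Dusp5 has the only pair of CArG boxes, and full CREs are seen in Dusp1 (1) and Dusp8 (2).

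Values below are log2 intensities per probe set on the scale of the robust multi-array average (RMA), which carry no read depth, so precision rests on the number of arrays. They are compared between groups within a probe set, never between genes. Differences were tested with limma over all 26038 probe sets, and a Benjamini-Hochberg adjusted p under 0.05 was a call. Because the labels do not say whether arrays of a group came from separate cultures, every p-value here is set against array-to-array spread, which may be technical. In bulk RNA, fewer cells of a type and less RNA per cell cannot be told apart.

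The arrays were alike in quality, with medians of 7.31 to 7.38 and correlations of 0.993 to 0.995 within groups and 0.983 to 0.993 between groups over all probe sets. The target of the ASO, Lncpint, fell by 1.78 with the Pint ASO (SE 0.12, adjusted p = 2.94e-05) and by 0.54 with p53 siRNA (SE 0.11, adjusted p = 0.00673). Between the controls, Lncpint stood 0.71 above control siRNA in control ASO (SE 0.12, adjusted p = 0.0137). The p53 transcript was not analysed here.

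With the Pint ASO, 8 of the 10 feedback genes rose, by log2 changes of 0.21 to 0.94, and none fell (limma, 0 lower also at an unadjusted p under 0.05). With p53 siRNA, Dusp4, Dusp5, Dusp6, Dusp8 and Spry4 fell and Spry1 rose. Among all probe sets tested, 8.49% were called higher and 10.7% lower with the Pint ASO, and 7.97% were called higher and 8.96% lower with p53 siRNA. The 10 genes were chosen with earlier results of these data known, so their counts beside these shares are a description and not a test. Related genes outside the 10 are given below. The median change of the 10 genes was 0.48 with the Pint ASO and -0.14 with p53 siRNA, where the medians of all tested probe sets were 0.00 and 0.01. The values of the 8 genes called with the Pint ASO lay above the control ASO in every array, as did 18.2% of all probe sets, while 22.2% lay below in every array, with none of the 10 genes among them. In the p53 arm, 2 genes lay wholly above and 6 wholly below their control, against 17.1% and 18.6% of all probe sets. At B over 3, the B threshold of the study, 4 genes passed with the Pint ASO (Dusp5, Dusp8, Spry2 and Spry4) and 1 with p53 siRNA (Dusp6). Among all probe sets, 3.12% and 3.92% passed in either direction. The supplementary methods of the study also name log fold-change cut-offs and a low-value filter in each condition, so these counts are not at its full criteria.

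**Figure D2:**
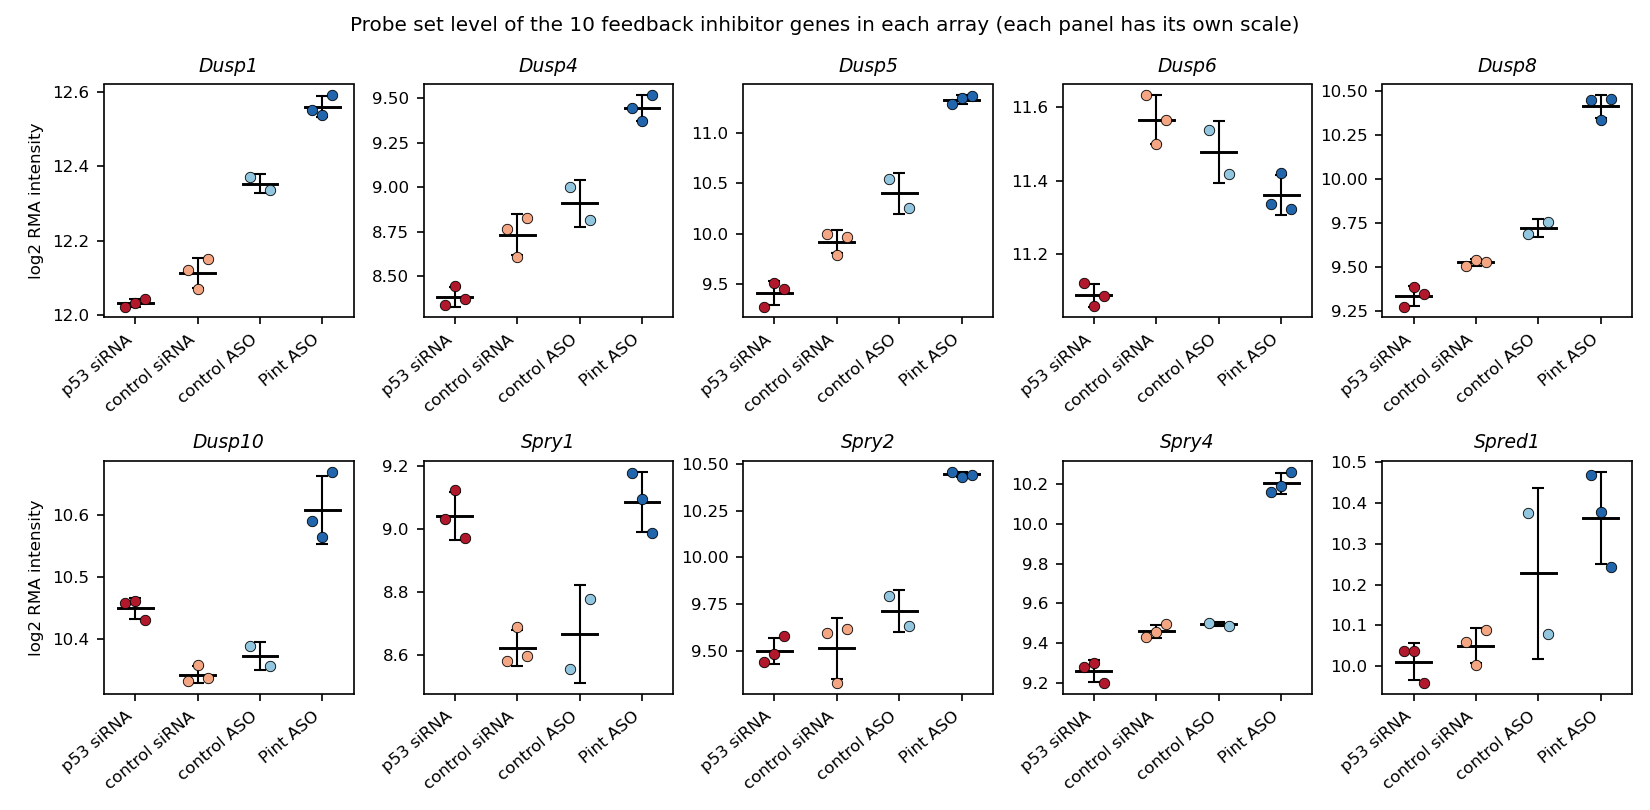
Log2 RMA intensity (vertical axis, own scale in each panel) of the 10 genes per array (points), where lines mark means and bars the SD, for p53 siRNA, control siRNA, control ASO and Pint ASO. Dusp5 reaches 11.29 to 11.37 in the Pint ASO arrays and 9.27 to 9.51 in the p53 siRNA arrays, and Dusp6 is lowest with p53 siRNA, at 11.06 to 11.12.

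Dusp5, an inducible nuclear phosphatase specific for ERK, had the largest rise of the 10 with the Pint ASO and the largest fall with p53 siRNA. The Pint ASO arrays stood at 11.29, 11.35 and 11.37 and the control ASO arrays at 10.55 and 10.26. In the siRNA arm, the control arrays stood at 10.00, 9.79 and 9.97 and the p53 siRNA arrays at 9.27, 9.51 and 9.45. No array of one group reached the values of another, so the 4 groups formed separate steps that spanned 1.93 between the lowest and the highest mean. The level was 1.91-fold that of the control with the Pint ASO (log2 change 0.94, SE 0.10, adjusted p = 0.000322) and fell by 0.51 with p53 siRNA (SE 0.09, adjusted p = 0.00420). The 2 control ASO arrays differed by 0.29 from each other, more than the arrays of any other group.

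Dusp4, a nuclear phosphatase that acts on ERK and JNK, followed the same pattern at a smaller scale. Its Pint ASO arrays stood at 9.44, 9.37 and 9.52, above the control ASO arrays at 9.004 and 8.81. The p53 siRNA arrays, at 8.34, 8.45 and 8.37, lay below the control siRNA arrays at 8.77, 8.61 and 8.83. Only the pair of control groups overlapped. Dusp4 rose by 0.54 with the Pint ASO (SE 0.08, adjusted p = 0.00207) and fell by 0.35 with p53 siRNA (SE 0.07, adjusted p = 0.0107).

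Dusp1, the immediate-early phosphatase that dephosphorylates p38, JNK and ERK in the nucleus, changed less. It stood at 12.55, 12.54 and 12.59 in the Pint ASO arrays and at 12.37 and 12.34 in the control ASO arrays. Control siRNA arrays gave 12.12, 12.07 and 12.15, and p53 siRNA arrays 12.02, 12.03 and 12.04. The 4 groups did not overlap, and the step between the means of the controls was wider than the step within either arm. The rise with the Pint ASO was 0.21 (SE 0.05, adjusted p = 0.0110). It was no longer called when control ASO array 2 was left out (adjusted p = 0.0656). The change with p53 siRNA was -0.08 and was not called (SE 0.04, adjusted p = 0.230).

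Dusp6, the cytoplasmic phosphatase of ERK and a standard readout of ERK activity, did not share the rise. Its Pint ASO arrays stood at 11.34, 11.42 and 11.32 and its control ASO arrays at 11.54 and 11.42, and 1 array of each group stood at 11.42. The change was -0.12 and was not called (SE 0.06, adjusted p = 0.236), with a 95% interval of -0.25 to 0.02 that excludes a rise of the size seen in the 8 called genes. It lay at -0.06 and -0.18 with 1 or the other control ASO array left out. In the p53 arm it stood at 11.12, 11.06 and 11.09 against 11.63, 11.50 and 11.56 in control siRNA. These groups were well apart, and the fall of 0.48 (SE 0.05, adjusted p = 0.000269) had the lowest adjusted p of the 10 genes in that comparison.

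Dusp8 and Dusp10 code for phosphatases that prefer JNK and p38 to ERK. Dusp8 stood at 10.45, 10.34 and 10.45 with the Pint ASO and at 9.69 and 9.76 with the control ASO. The siRNA arrays gave 9.51, 9.54 and 9.53 for the control and 9.28, 9.39 and 9.35 for p53. All 4 groups were apart, with the Pint ASO arrays well above the rest. Dusp8 rose 1.61-fold with the Pint ASO (log2 change 0.69, SE 0.06, adjusted p = 6.58e-05) and fell by 0.19 with p53 siRNA (SE 0.05, adjusted p = 0.0283). The fall with p53 siRNA was no longer called in 5 of 11 refits, those that omitted any single control siRNA array and those that omitted p53 siRNA array 1 or 3 (adjusted p from 0.0654 to 0.0976). It was also lost with median centring (0.0633), with quantile normalization applied again (0.0636), with the mean of both Dusp8 probe sets (0.0534) and with every replicate block tried (0.0572 to 0.143).

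The second Dusp8 probe set was dimmer and more scattered. It stood at 7.96, 7.91 and 7.55 with the Pint ASO and at 7.56 and 7.40 with the control ASO, where the groups overlapped. Its changes of 0.33 (SE 0.17, adjusted p = 0.232) and, with p53 siRNA, -0.37 (SE 0.15, adjusted p = 0.138) had the signs of the first probe set and were not called.

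Dusp10 was 10.59, 10.56 and 10.67 in the Pint ASO arrays, 10.39 and 10.36 in the control ASO arrays, 10.33, 10.36 and 10.34 in control siRNA and 10.46, 10.46 and 10.43 in p53 siRNA. Both knockdowns lay wholly above their controls, a pattern also seen in Spry1. It rose by 0.24 with the Pint ASO (SE 0.05, adjusted p = 0.00718), and the change of 0.11 with p53 siRNA was not called (SE 0.04, adjusted p = 0.123).

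Sprouty proteins are induced by growth factors and block the step from receptor to Ras and Raf. Spry4 stood at 10.16, 10.19 and 10.26 with the Pint ASO and at 9.50 and 9.49 with the control ASO. Values were 9.43, 9.46 and 9.50 in control siRNA and 9.28, 9.30 and 9.20 in p53 siRNA. The controls overlapped each other, and each knockdown was apart from its control in opposite directions. Spry4 rose 1.63-fold with the Pint ASO (log2 change 0.71, SE 0.05), the lowest adjusted p of the 10 genes (4.61e-05). It fell by 0.20 with p53 siRNA (SE 0.05, adjusted p = 0.0172), a call lost without control siRNA array 3 (adjusted p = 0.0681), without p53 siRNA array 3 (0.0691) or with each array centred on its median (0.0512). Replicate blocks by title number (0.0531) and within each arm (0.120 and 0.0838) ended it as well.

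Spry2 stood at 10.46, 10.43 and 10.44 in the Pint ASO arrays, the tightest group of the gene, and at 9.79 and 9.63 in the control ASO arrays. In the siRNA arm the control arrays gave 9.60, 9.33 and 9.62 and the p53 siRNA arrays 9.44, 9.49 and 9.58, which lay within the range of the control. It rose 1.66-fold with the Pint ASO (log2 change 0.73, SE 0.09, adjusted p = 0.000633). The change with p53 siRNA was -0.01 (SE 0.08, adjusted p = 0.935), with a 95% interval of -0.20 to 0.17.

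Spry1 was the gene that rose in both knockdowns. It stood at 9.18, 9.09 and 8.99 with the Pint ASO against 8.55 and 8.78 with the control ASO, and at 9.03, 9.12 and 8.97 with p53 siRNA against 8.58, 8.69 and 8.60 with the control siRNA. The knockdown groups overlapped each other, as did the control groups, and each knockdown lay above its control in every array. Both changes came to 0.42 (SE 0.08, adjusted p = 0.00735 with the Pint ASO, and SE 0.08, adjusted p = 0.00398 with p53 siRNA). The Pint ASO call was lost without control ASO array 1 (change 0.31, adjusted p = 0.0643).

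Spred1, which holds Ras in check at the membrane together with neurofibromin, was called in neither knockdown. Pint ASO arrays stood at 10.47, 10.38 and 10.24 and the control ASO arrays at 10.38 and 10.08. Values in the siRNA arm were 10.06, 10.00 and 10.09 for the control and 10.04, 10.04 and 9.96 for p53. All neighbouring groups overlapped. The changes were 0.14 (SE 0.09, adjusted p = 0.381, 95% interval -0.07 to 0.34) and -0.04 (SE 0.08, adjusted p = 0.804). The first of these rested on the control ASO arrays, as it became 0.28 without array 1 and -0.01 without array 2.

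**Figure D3:**
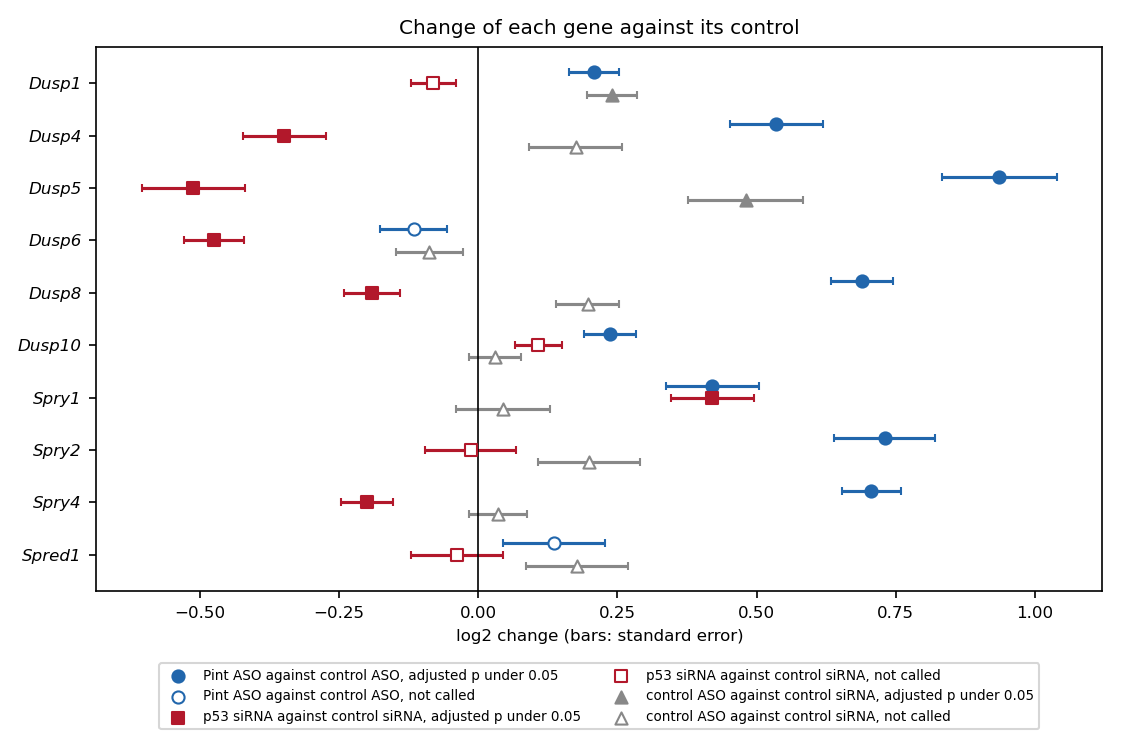
Log2 change (horizontal axis) of each gene with its standard error (bars) for Pint ASO against control ASO (blue circles), p53 siRNA against control siRNA (red squares) and control ASO against control siRNA (grey triangles), filled where the adjusted p was under 0.05. Dusp5 shows changes of 0.94 and -0.51 in the knockdowns, and Spry1 shows 0.42 in both.

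Whether the knockdowns differed in their effect on a gene was tested directly, as the Pint ASO change minus the p53 siRNA change. This contrast uses the same arrays as the comparisons above. The difference was positive and called in 7 of the 10 genes and negative and called in none (limma, 0 also at an unadjusted p under 0.05), where 9.15% of all probe sets were called positive and 9.40% negative. It was 1.45 in Dusp5 (SE 0.14, adjusted p = 0.000112), 0.91 in Spry4 (SE 0.07, adjusted p = 3.83e-05), 0.88 in Dusp4 (SE 0.11, adjusted p = 0.000575) and 0.88 in Dusp8 (SE 0.08, adjusted p = 6.25e-05). Spry2 followed with 0.74 (SE 0.12, adjusted p = 0.00254). Dusp6 (0.36, SE 0.08, adjusted p = 0.0128) and Dusp1 (0.29, SE 0.06, adjusted p = 0.00891) had smaller differences. That of Dusp6 was not called without control ASO array 2 (adjusted p = 0.0591) or with a replicate block by title number within each arm (0.0965), and that of Dusp1 with neither block within arms (0.128 and 0.0743). In Dusp6 the p53 siRNA change was called and the Pint ASO change was not.

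The other 3 genes gave no call in that contrast. For Spry1 the difference was 0.00 (SE 0.11, adjusted p = 0.999), with a 95% interval of -0.25 to 0.25. Dusp10 stood at 0.13 (SE 0.06, adjusted p = 0.217) and Spred1 at 0.17 (SE 0.12, adjusted p = 0.420). At B over 3 the calls numbered 4 (Dusp4, Dusp5, Dusp8 and Spry4), against 3.61% of all probe sets.

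The controls of the knockdowns were themselves compared, as a background for the values above with which they share arrays. Control ASO lay above control siRNA in Dusp5, by 0.48 (SE 0.10, adjusted p = 0.0354), and in Dusp1, by 0.24 (SE 0.05, adjusted p = 0.0213). These were the 2 calls among the 10 genes, both higher, where 2.29% of all probe sets were called higher and 1.73% lower. The remaining changes ran from -0.09 in Dusp6 to 0.20 in Spry2, and the median of the 10 was 0.18. No gene passed B over 3 (limma, 3 genes at an unadjusted p under 0.05), against 0.595% of all probe sets. For Dusp1 the step between the controls (0.24) was larger than its Pint ASO change (0.21). Its call and that of Dusp5 were lost without any 1 control siRNA array or without control ASO array 1 (adjusted p from 0.0519 to 0.209), and that of either gene was lost in some further fits.

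Ordered by group means, 7 of the 10 genes rose in the sequence p53 siRNA, control siRNA, control ASO, Pint ASO, an order held by 10.7% of all tested probe sets. In Dusp1, Dusp5 and Dusp8 no neighbouring groups in that order overlapped. In Dusp4 and Spry4 the controls overlapped, in Spry2 the siRNA groups overlapped, and in Spred1 every pair of neighbours did. Dusp6 ran from p53 siRNA through Pint ASO and control ASO to control siRNA, and only the p53 siRNA group stood apart there. Dusp10 and Spry1 ran from control siRNA through control ASO and p53 siRNA to Pint ASO, with overlapping controls, and in Spry1 the knockdown groups overlapped too.

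Across the 11 arrays, which fall into 4 groups and thus mostly repeat the group pattern, Dusp4 and Dusp5 were the most alike of the 10 genes (Pearson r = 0.991), followed by Dusp8 and Spry4 (0.984) and Dusp1 and Dusp5 (0.982). Dusp6 and Spry1 were the least alike (-0.767). Outside the 10 genes, the most similar to Dusp5 were Itsn2 (0.995) and Mtmr10 (0.994), and to Dusp4 Mtmr10 (0.992) and Eif2b3 (0.992). The nearest to Spry2 were Epc1 (0.991) and Tnfaip3 (0.991), and to Spry4 Tmem171 (0.991) and Taf1c (0.991). Nfkbib (0.994) and Atmin (0.992) were nearest to Dusp1, and 1810013L24Rik (0.994) and Pmepa1 (0.993) to Dusp8. For Dusp6 they were Tmem184c (0.985) and Abcb1a (0.980), for Dusp10 Mamld1 (0.984) and Ank2 (0.977), for Spred1 Khdrbs1 (0.968) and Naa30 (0.967), and for Spry1 Zfp36l2 (0.912) and Slc43a1 (0.909). These values describe likeness over arrays and carry no test.

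Other inhibitors of the pathway were counted from lists chosen with earlier results of these data known. Of the 4 other MAPK phosphatase genes, Dusp16, a phosphatase of JNK and p38, rose with the Pint ASO by 0.29 (adjusted p = 0.00684) and fell with p53 siRNA by 0.24 (adjusted p = 0.0100), and Dusp2, Dusp7 and Dusp9 were not called. Of the 3 other Sprouty and Spred genes, Spry3 went against Spry4, with -0.48 after the Pint ASO (adjusted p = 0.000743) and 0.35 after p53 siRNA (adjusted p = 0.00219). Spred3 fell with p53 siRNA by 0.45 and Spred2 was not called. The medians of these lists were 0.26 and -0.02 with the Pint ASO and -0.05 and -0.16 with p53 siRNA.

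Among 8 further receptor and Ras inhibitors, 5 rose and 1 fell with the Pint ASO, where 8.49% of all probe sets were called higher and 10.7% lower. With p53 siRNA 1 rose and 4 fell, against 7.97% and 8.96% of all probe sets. The medians were 0.21 and -0.12. The receptor ubiquitin ligase genes Cblb (0.38, adjusted p = 0.000544) and Cbl (0.28) and the EGF receptor inhibitor gene Errfi1 (0.25) rose with the Pint ASO. The FGF receptor inhibitor gene Il17rd moved the other way, at -0.33 with the Pint ASO (adjusted p = 0.00115) and 0.22 with p53 siRNA (adjusted p = 0.00500). With p53 siRNA the Ras GTPase-activating genes Dab2ip (-0.36) and Rasa1 (-0.34) fell, as did Cbl (-0.24).

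Genes for the kinases and receptors upstream moved in both directions. Of a list of 23 ERK cascade genes 17 were tested, the rest being not analysed here. With the Pint ASO 1 rose and 4 fell, where 8.49% of all probe sets were called higher and 10.7% lower. With p53 siRNA 4 rose and 3 fell, against 7.97% and 8.96% of all probe sets. The medians were -0.03 and 0.01. The kinase gene Braf was 0.40 higher with the Pint ASO (adjusted p = 0.000722), and the PDGF receptor genes Pdgfrb (-0.49) and Pdgfra (-0.21) and the adaptor gene Shc1 (-0.34) were lower. Between the controls, only Braf was called in this list, lower in control ASO than in control siRNA (-0.23, adjusted p = 0.0428). With p53 siRNA, Pdgfrb (0.50) and Pdgfra (0.48) rose while the EGF receptor gene Egfr (-0.43) and the adaptor gene Gab1 (-0.25) fell.

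Of 15 JNK and p38 cascade genes tested of 16, 3 rose and none fell with the Pint ASO (limma, 3 genes lower at an unadjusted p under 0.05), namely Map2k3 (0.30), an activator of p38, and the p38 family genes Mapk12 (0.26) and Mapk11 (0.21). With p53 siRNA 3 rose and 5 fell, and the falls were largest in Mapkapk3 (-0.68, adjusted p = 5.21e-06), a kinase downstream of p38, Map3k20 (-0.53), Map2k4 (-0.48) and Mapk13 (-0.41). The medians were 0.08 and -0.11. Of all probe sets, 8.49% were called higher and 10.7% lower with the Pint ASO, and 7.97% and 8.96% with p53 siRNA.

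Transcripts that respond to ERK were counted last. Of 12, 6 rose and 3 fell with the Pint ASO, where 8.49% of all probe sets were called higher and 10.7% lower. With p53 siRNA 1 rose and 6 fell, against 7.97% and 8.96% of all probe sets. The medians were 0.29 and -0.18. The zinc finger gene Egr1 (0.998, adjusted p = 5.24e-06), Myc (0.87), Phlda1 (0.69) and Fos (0.59) rose most with the Pint ASO. With p53 siRNA the ephrin receptor gene Epha2 (-0.57, adjusted p = 4.16e-05), the ETS factor gene Etv4 (-0.55), Phlda1 (-0.36) and Fosl1 (-0.32) fell most. The 3 that fell with the Pint ASO were Etv1 (-0.38), Epha4 (-0.34) and Ccnd1 (-0.27), named after their values were seen. Between the controls, 4 of the 12 were called, all with control ASO above control siRNA, namely Myc (0.52), Egr1 (0.45), Fosl1 (0.29) and Epha2 (0.23). Of all probe sets, 2.29% were called higher in that comparison.

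**Figure D4:**
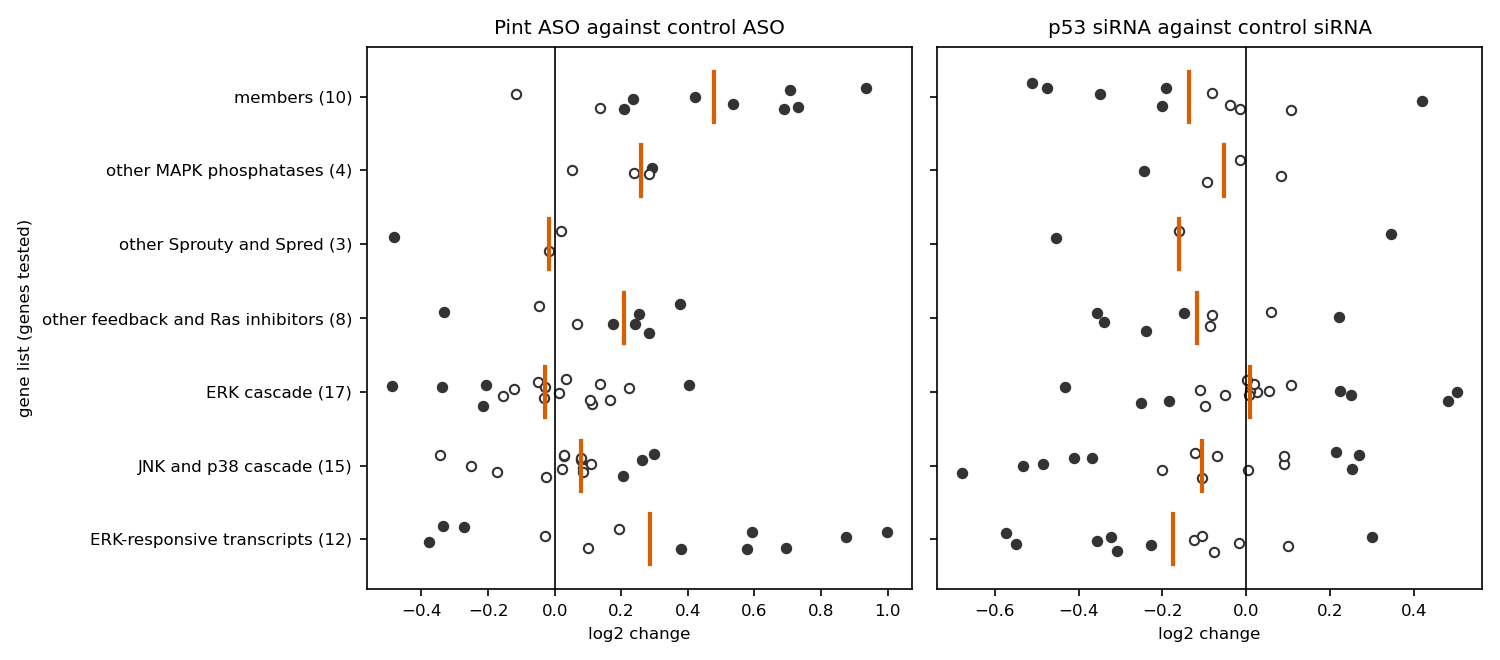
Log2 change (horizontal axis) of each gene (points, filled where the adjusted p was under 0.05) in the 10 feedback genes and 6 pathway lists, with the list median (bar), for Pint ASO against control ASO (left) and p53 siRNA against control siRNA (right). The medians of the feedback genes lie at 0.48 and -0.14, and those of the ERK cascade at -0.03 and 0.01.

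The cells were checked against markers. All 10 fibroblast markers were over the floor of 6 in every array. So were the 4 endothelial, the 3 skeletal muscle, 4 of the 5 epithelial and some of the macrophage and blood markers. Being over the floor therefore does not by itself tell fibroblasts from these other types. Marker sums here are the log2 of the summed linear intensities of a list, in which bright probe sets weigh most. For the fibroblast markers the sum was 16.10 to 16.12 in control siRNA and 16.25 to 16.27 in p53 siRNA. It was 16.05 in control ASO and 15.78 to 15.83 in Pint ASO. Of the 10 fibroblast markers, 8 were lower with the Pint ASO and 6 were higher with p53 siRNA, against 10.7% and 7.97% of all probe sets. This shift ran opposite to the median change of the feedback genes in both knockdowns, although Spry1 rose with p53 siRNA as the markers did. The part of the shift in the changes of the feedback genes was not tested. Of the 6 macrophage and blood markers, Adgre1 and Ptprc were over the floor in no array, and 2 were over it in every array. The sum of this list was 10.71 to 10.74 in control ASO and 10.35 to 10.40 in Pint ASO. It was 10.74 to 10.81 in control siRNA and 9.99 to 10.05 in p53 siRNA. Of its 4 tested markers only Cd68 was called, lower with both the Pint ASO (-0.47) and p53 siRNA (-1.04). Of the 5 epithelial markers, Epcam was likewise over the floor in no array, and the other 4 were over it in every array. The sum of the 5 lay between 10.45 and 10.71 throughout. Even so, Cdh1 fell with the Pint ASO by 0.68 (adjusted p = 0.000181) and Krt18 with p53 siRNA by 0.20. Both were also called lower in control ASO than in control siRNA (Cdh1 -0.40, adjusted p = 0.0136, and Krt18 -0.28, adjusted p = 0.0299). The 4 endothelial markers summed to 9.23 to 9.26 in Pint ASO and to 8.79 to 8.97 elsewhere, and the 3 skeletal muscle markers to 8.40 to 8.78 in all arrays. Within these lists the calls were Kdr (0.77) and Tek (-0.17) with the Pint ASO, and Des with the Pint ASO (-0.35) and with p53 siRNA (-0.87). The part of these in the results was not tested.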

How the data were processed

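Per the labels, total RNA was extracted with TRIzol and purified on columns, and labelled sense cDNA was made from 300 ng and hybridised to 11 arrays in 4 groups. The values deposited by the authors are log2 intensities per probe set, made with RMA (robust multi-array average, which corrects background, normalizes across arrays and summarizes probes), version not given in the sources used here. The main and supplementary methods of the study name different array models, and probe sets were named with the platform annotation, of which 21640 carry 1 symbol. The genome build used upstream is not given in the sources used here.

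Probe sets entered the test if 2 or more arrays of any group lay over a log2 intensity of 6 (linear 64). A single limma model (version 3.58.1, R 4.3.3) held the 4 groups (empirical Bayes, no trend), with Benjamini-Hochberg adjustment over the probe sets tested and a call at an adjusted p under 0.05. Fold changes are on the log2 scale with moderated standard errors. The fit was tested on simulated data. Members, gene lists and tests were chosen with earlier results of these data known. Besides the members, up to 4 called genes of each list per knockdown were named, by size of change, and for each member the 2 genes with the highest Pearson r. Uncalled genes of the smaller lists, the ERK-responsive genes that fell with the Pint ASO, and single called markers were named after their values were seen. Motifs were searched on both strands of RefSeq promoter windows of 300 bases.

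Alternatives were another filter or none, median centring, quantile normalization applied again, an intensity trend, B over 3, replicate blocks, each array left out, separate fits per comparison, and the mean of the Dusp8 probe sets. Replicate numbers were not used as pairs.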

Additional observations from a re-analysis of the deposited data

Results flagged for a closer look

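In 7 genes the effect of the Pint ASO and the effect of p53 siRNA differed when the difference itself was tested with limma (adjusted p under 0.05). Among all probe sets, 9.15% were called positive and 9.40% negative in this contrast. The difference on the log2 scale was 1.45 in Dusp5, 0.91 in Spry4, 0.88 in Dusp4, 0.88 in Dusp8, 0.74 in Spry2, 0.36 in Dusp6 and 0.29 in Dusp1. The difference of Dusp1 was not called with a replicate block within each arm by either numbering (adjusted p = 0.128 and 0.0743), and that of Dusp6 was not called with that block by title number (0.0965) or without control ASO array 2 (0.0591). In Dusp4, Dusp5, Dusp8 and Spry4 the 2 effects were both called in the main fit and had opposite signs. With a replicate block within each arm, both Dusp4 calls were lost by either numbering (adjusted p from 0.0502 to 0.0790). The p53 siRNA call of Dusp5 was lost with that block by title number (0.0568), and those of Dusp8 and Spry4 in the fits given above. In Spry2 and Dusp1 the Pint ASO effect was called and the p53 siRNA effect was not, and in Dusp6 it was the reverse. The knockdowns used different reagents and different controls, so reagent and target cannot be told apart in this contrast, and control ASO stood above control siRNA by 0.48 in Dusp5 and 0.24 in Dusp1.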

How the results depend on the processing

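Of 890 recomputed values of single genes, 803 kept their direction and their side of the threshold, 72 kept the direction but were no longer called, 15 that were called in neither fit changed sign, and 0 called values reversed. With B over 3 in place of the adjusted p, the genes called numbered 4 with the Pint ASO (8 before), 1 with p53 siRNA (6 before), 4 for the difference (7 before) and 0 between the controls (2 before). With only the 2 groups compared in the fit they numbered 5 with the Pint ASO, where Dusp1 (adjusted p = 0.107), Dusp10 (0.0964) and Spry1 (0.0656) were lost, and 0 between the controls. That fit called 888 of all probe sets higher and 1137 lower with the Pint ASO, where the main fit called 2211 and 2774. Between the controls it called 42 higher and 26 lower. With 1 array left out the ranges were 7 to 8 with the Pint ASO, 4 to 6 with p53 siRNA, 6 to 7 for the difference and 0 to 2 between the controls. Without the filter the control count was 1, and 425 of all probe sets were called higher and 295 lower. Same-numbered arrays did not deviate together in the siRNA arm (correlations -0.284, -0.181 and -0.0371). In the ASO arm titles gave -0.0463 and -0.420, and descriptions, which number the control arrays differently, gave 0.420 and 0.375. With 2 control ASO arrays the deviations from their mean mirror each other, so the sign depends on the numbering. These values therefore cannot decide on pairing in the ASO arm, and the numbers were not taken as pairs. The replicate block by title or description number gave 8 and 8 with the Pint ASO, 4 and 5 with p53 siRNA and 0 and 0 between the controls. With the Pint ASO it called 1526 of all probe sets higher and 2021 lower by titles, and 1785 and 2173 by descriptions. With p53 siRNA these were 1602 and 1820, and 1791 and 2073. Between the controls they were 246 and 125, and 282 and 183. A replicate block within each arm, chosen after seeing the data, gave 4 and 4 with the Pint ASO (Dusp5, Dusp8, Spry2 and Spry4), 2 and 3 with p53 siRNA, and 5 and 6 for the difference. Calls among all probe sets also fell, to 532 higher and 779 lower by titles and 1157 and 1447 by descriptions with the Pint ASO. With p53 siRNA they were 1033 and 1252, and 1441 and 1725. For the difference they were 889 and 1038, and 1511 and 1547. In the ASO arm this block takes the Pint ASO array without a same-numbered control out of the estimate. The Dusp1 change thus equals that without Pint ASO array 3 by titles (0.19) and without array 1 by descriptions (0.21). Between the controls, 595 probe sets were called higher and 451 lower as deposited, and 546 and 252 after median centring. With p53 siRNA, median centring left 4 genes called (1 higher, 3 lower) and repeated quantile normalization 5 (1 higher, 4 lower). Among all probe sets these called 2194 higher and 1833 lower, and 2480 and 2241. The mean of both Dusp8 probe sets took its p53 siRNA change to -0.28 (adjusted p = 0.0534). The 2 control ASO arrays limit the precision of the ASO arm and of both contrasts that rest on it.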
